A study of Drosophila ananassae with 54 samples.

Results

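The difference between 2 cold-tolerant lines of Drosophila ananassae, KATH and FastBKK, in how the adult male body responded to mild cold is described here across genes. It is an interaction: the cold response of KATH (cold minus control) minus the cold response of FastBKK, so a positive value means a response that was higher in KATH. It rests on 12 of the 54 RNA-seq libraries of the series, 3 in each of 4 groups, which were chosen by their labels and not by their values. KATH is a pool of 3 isofemale lines from Kathmandu and FastBKK a pool of 4 isofemale lines from Bangkok, and both carry the label tolerant. Flies of the KATH cold and FastBKK cold groups were put at 10 °C on the day after they left the pupa, stayed there for 4 days and then had 90 min of recovery. Flies of the KATH control and FastBKK control groups were held at the rearing temperature of 22 °C for 4 days, with no recovery listed, so acclimation and recovery cannot be told apart. All 4 groups were males on the same corn-molasses food, each library pooled 10 individuals, and RNA from the body was enriched for poly-A. The design asked how populations and tolerance phenotypes differ in cold acclimation, and since both lines here are tolerant, the comparison addresses population. With 1 pool of isofemale lines from each place, population and the particular lines pooled cannot be told apart.

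An insect held at a mild low temperature can gain cold tolerance, a process called acclimation. Chilling slows ion transport, and an insect that cannot hold its ion and water balance falls into chill coma, from which tolerant flies recover sooner. The Malpighian tubules secrete the primary urine and the hindgut takes back ions and water from it, which makes these organs central to cold tolerance. An interaction between line and treatment separates genes that merely differ between lines at every temperature, or that respond alike in both lines, from genes whose response itself differs. In a whole body, fewer cells of a type and less RNA per cell cannot be told apart.

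The 12 libraries held 30.7 to 38.8 M counts. Pairs of libraries within a group had correlations of log2 CPM (counts scaled to a common library size by TMM) of 0.989 to 0.993 across genes, which are not independent replicates. Over the 18 body libraries, which include 6 of the cold-sensitive Bangkok line SlowBKK, the first principal component held 51.1% of the variance and separated cold from control. The second held 16.2% and separated KATH from both Bangkok lines. The labels name pools but do not say whether libraries of a group came from separate cultures, so p-values measure the spread between these samples. Genes are given by annotation symbol, FlyBase identifier and scaffold as deposited. Gene products and positions within scaffolds were not used here, so no role is given for any gene, and reads shared between overlapping or near-identical genes could have moved a value.

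The body response to cold differed between the lines at 1897 of 13435 tested genes, or 14.1% (edgeR quasi-likelihood test of the interaction, Benjamini-Hochberg adjusted p under 0.05). The response was higher in KATH at 1190 genes (8.86% of tested genes) and lower in KATH at 707 (5.26%). This majority turned round with the scaling of the libraries: scaled by library totals alone, 764 genes were higher and 1496 lower, and with the trend of each library over gene length removed, 1056 were higher and 1343 lower. Scaling by library totals moved the median interaction of all tested genes by -0.12 on the log2 scale, to -0.09 against 0.03 with TMM. Each gene was tested against 0, so the counts in each direction depend on the scaling. The differences were mostly modest, with a median absolute size of 0.57 on the log2 scale among called genes, and 442 of the called genes passed 1 on that scale, 338 of them higher and 104 lower. At an unadjusted p under 0.05, 3882 genes differed. The called gene nearest to the threshold was GF13396, with an interaction of 0.39 and an adjusted p of 0.0499, and the nearest outside it was GF16453, with -1.07 and 0.0502 (edgeR).

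Both lines responded broadly to cold, and the interaction is the difference between these responses. In KATH 7881 genes were called in cold against control, 58.7% of those tested, with 3994 higher and 3887 lower in the cold. In FastBKK 6764 genes were called, or 50.3%, with 3379 higher and 3385 lower. KATH and FastBKK also differed from each other, at 3088 genes (23% of those tested) in the cold and at 4501 genes (33.5%) at the control temperature (edgeR, same fit and threshold). These comparisons share libraries with the interaction and are its parts, not separate evidence.

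**Figure D1:**
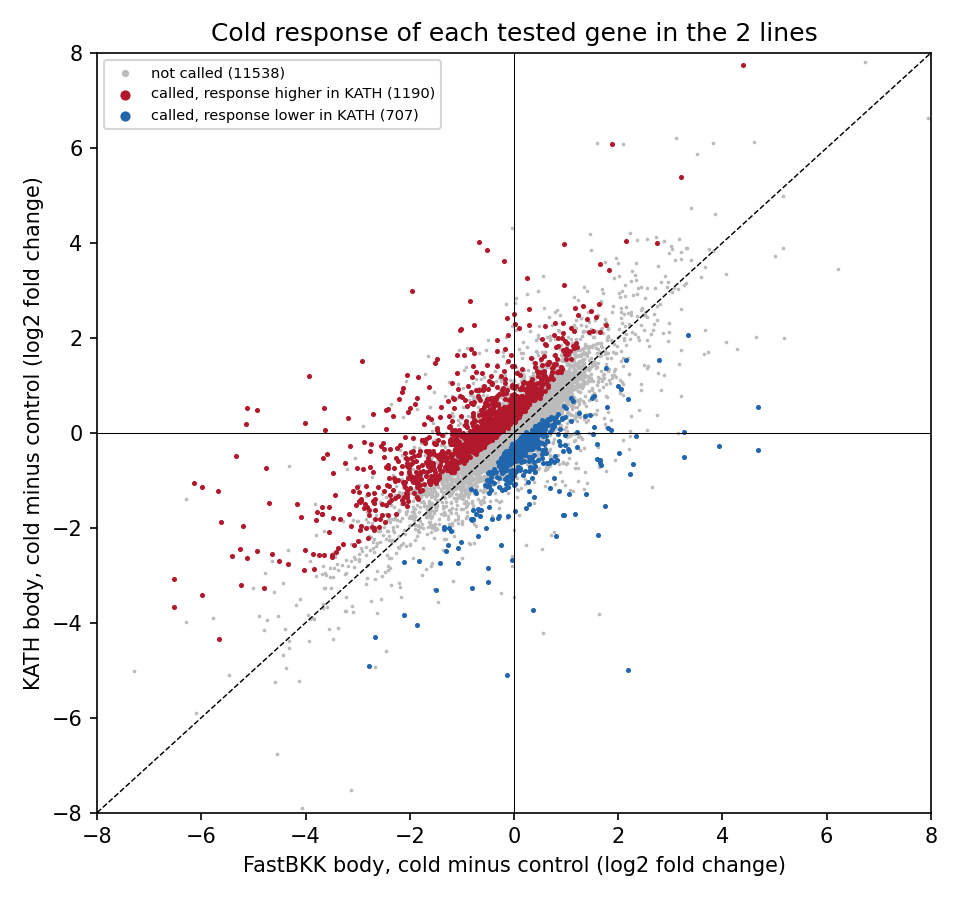
Each point is 1 tested gene, with its FastBKK cold response on the horizontal axis and its KATH cold response on the vertical axis, both as log2 fold change of cold over control in the body, and the dashed line marks equal responses. The 1190 genes with a higher response in KATH (red) lie above the line and the 707 with a lower one (blue) below it, mostly near it, and 1 gene lies outside the axes.

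Genes with a higher response in KATH were mostly genes that fell less, or not at all, in the KATH cold. Their median response was 0.11 in KATH against -0.57 in FastBKK on the log2 scale. They fell in both lines at 347 genes, with a median of -0.73 in KATH against -1.63 in FastBKK, and at 337 genes they fell in FastBKK with no call in KATH, with medians of 0.00 against -0.66. A further 243 genes rose in KATH with no call in FastBKK, with medians of 0.53 against -0.03. At 162 genes both lines rose, by medians of 1.18 in KATH against 0.56 in FastBKK. At 99 genes KATH rose and FastBKK fell, with medians of 0.51 against -0.52, and the remaining 2 genes were called in neither line.

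Genes with a lower response in KATH were most often genes that fell in KATH and gave no call in FastBKK. Of the 707, 367 fell in KATH with no call in FastBKK, with medians of -0.37 in KATH against 0.03 in FastBKK. At 138 genes FastBKK rose with no call in KATH, with medians of -0.08 in KATH against 0.43 in FastBKK. At 84 genes KATH fell and FastBKK rose, with medians of -0.27 against 0.23. Both lines fell at 76 genes, by medians of -1.04 in KATH against -0.48 in FastBKK, and both rose at 35, by 0.34 against 0.91. The last 7 genes were called in neither line. The difference was smaller here than among the genes higher in KATH: the median interaction was -0.43 for the 707 genes against 0.68 for the 1190.

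**Figure D2:**
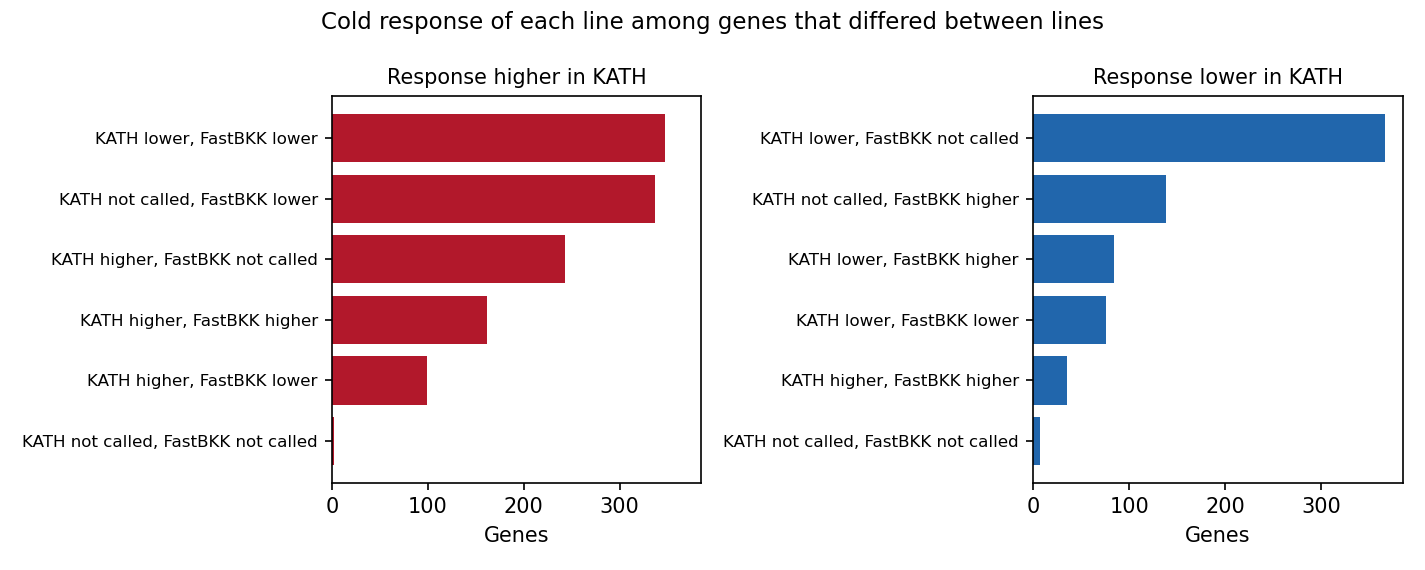
Bars count called genes by the separate cold call of each line (higher in the cold, lower in the cold, or not called), on the left for the 1190 genes with a higher response in KATH and on the right for the 707 with a lower one. The longest bars are 347 and 337 genes that fell in FastBKK on the left, and 367 genes that fell in KATH alone on the right.

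The share of all body RNA that these genes took shows the same in each library. The 1190 genes with a higher response in KATH held 16.2 to 16.9% of counts in KATH cold libraries against 15.9 to 16.9% in KATH control libraries, ranges that overlap. In FastBKK they held 13.1 to 13.7% in cold libraries against 19.5 to 19.9% in control libraries, which do not overlap. The 707 genes with a lower response held 5.16 to 5.29% in KATH cold libraries against 6.99 to 7.37% in KATH control libraries, and 6.03 to 6.34% in FastBKK cold libraries against 5.24 to 5.52% in FastBKK control libraries. The call selected these genes from the same libraries, so the shares describe them and test nothing.

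SlowBKK, the cold-sensitive line from the same place as FastBKK, is no part of the contrast. It had 6373 genes called in cold against control, or 47.4%. Its cold response lay nearer to that of FastBKK than to that of KATH at 1387 of the 1897 called genes, or 73.1%, against 59.4% of all tested genes. This held for 864 of the 1190 genes higher in KATH and 523 of the 707 lower in KATH. The median SlowBKK response was -0.33 over the genes higher in KATH and 0.01 over those lower in KATH. These are counts over genes of 1 further pool of isofemale lines and were not tested. Called genes were selected for a wide gap between KATH and FastBKK, so their share and that of all tested genes are not on equal terms. The SlowBKK response lay outside the range between KATH and FastBKK at 623 of the 1897 called genes and at 9123 of the 13435 tested genes.

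At control temperature the called genes already differed between the lines, in the direction opposite to their interaction. Genes with a higher response in KATH had a median KATH minus FastBKK difference of 0.27 in the cold and -0.35 at 22 °C on the log2 scale. Genes with a lower response in KATH had medians of -0.15 in the cold and 0.29 at 22 °C. The absolute gap between the lines was narrower in the cold at 681 of the 1190 genes (57.2%), the same share as over all tested genes (57.2%), and at 480 of the 707 genes (67.9%). Since the 22 °C libraries enter the interaction with the opposite sign, the opposite direction at 22 °C is partly built into the selection.

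The 8 highest interactions among genes of at least 10 CPM on average were all in genes that were present in neither dissected organ, by a median under 1 CPM in the hindgut and in the tubule libraries. GF10072 (FBgn0087113, scaffold_13337) was at 50.9, 78.4 and 160 CPM in KATH cold bodies against 297, 179 and 124 CPM in KATH control bodies. In FastBKK it was at 6.98, 21.1 and 6.32 CPM in the cold against 730, 746 and 945 CPM in controls. The FastBKK groups were far apart, while the KATH groups overlapped. Its interaction was 5.09 ± 0.66 (SE) on the log2 scale, with an adjusted p of 0.000152 (edgeR, n = 3 libraries per group). Its neighbour by symbol number, GF10073 (FBgn0087114, same scaffold), also had overlapping KATH groups and FastBKK groups far apart. It was at 17.4, 24.5 and 44.5 CPM in KATH cold against 81.5, 72.6 and 35.8 CPM in KATH control bodies, and at 0.949, 1.14 and 1.17 CPM in FastBKK cold against 65.8, 68.9 and 73.5 CPM in FastBKK control bodies. KATH minus FastBKK was 4.72 on the log2 scale in the cold (adjusted p 7.18e-06) and -0.13 at 22 °C (adjusted p 0.8, edgeR). The interaction of GF10073 was 4.85 ± 0.62 (adjusted p 0.000144, edgeR). The pair differed at 22 °C, where KATH minus FastBKK was -2.01 for GF10072 (adjusted p 0.00269, edgeR).

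A second pair of consecutive symbols on scaffold_13337 also fell steeply in FastBKK, but its members differed in KATH. GF24436 (FBgn0101430) was at 170, 270 and 425 CPM in KATH cold bodies against 555, 434 and 229 CPM in KATH control bodies, and at 12.8, 46.0 and 26.6 CPM in FastBKK cold against 826, 1221 and 1422 CPM in FastBKK control bodies. Again the FastBKK groups did not overlap and the KATH groups did, and KATH alone gave no call (log2 change -0.49, adjusted p 0.365, edgeR). The interaction was 4.85 ± 0.68 (adjusted p 0.000291, edgeR). GF24437 (FBgn0101431) was at 4.87, 7.49 and 9.86 CPM in KATH cold against 30.5, 38.9 and 11.9 CPM in KATH control bodies, and at 1.47, 0.903 and 0.755 CPM in FastBKK cold against 50.4, 45.5 and 56.7 CPM in FastBKK control bodies. It fell in both lines without overlap, with a KATH log2 change of -1.87 against a FastBKK one of -5.61. SlowBKK resembled FastBKK at these genes: its cold bodies held a mean of 20.7 ± 11.8 CPM of GF24436 against 906.6 ± 122 CPM in its controls (SD, n = 3 each).

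GF22963 and GF25009 combined a large interaction with little spread. GF22963 (FBgn0099957, scaffold_12911) was at 130, 121 and 146 CPM in KATH cold bodies against 109, 109 and 57.3 CPM in KATH control bodies, and at 18.4, 16.2 and 10.4 CPM in FastBKK cold against 177, 188 and 198 CPM in FastBKK control bodies. It rose in KATH and fell in FastBKK, with no overlap in either line, and the interaction was 4.18 ± 0.30 (adjusted p 5.58e-07, edgeR). GF25009 (FBgn0102001, scaffold_13337) was at 43.4, 37.3 and 38.7 CPM in KATH cold against 69.5, 72.8 and 57.2 CPM in KATH control bodies, and at 4.29, 4.25 and 4.75 CPM in FastBKK cold against 109, 131 and 121 CPM in FastBKK control bodies. It fell in both lines without overlap, far more so in FastBKK, and its adjusted p of 8.32e-08 was the smallest of the named genes (interaction 4.02 ± 0.23, edgeR).

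The other members of the highest 8 fell in FastBKK to levels close to those of KATH. GF25227 (FBgn0102219, scaffold_13337) was at 11.7, 12.2 and 14.7 CPM in KATH cold against 12.8, 13.9 and 10.3 CPM in KATH control bodies, groups that overlap. In FastBKK it was at 10.0, 4.83 and 9.76 CPM in the cold against 137, 80.3 and 85.6 CPM in controls, so that the lines stood apart at 22 °C and not by the test in the cold (KATH minus FastBKK 0.65 on the log2 scale, adjusted p 0.141, edgeR). GF16221 (FBgn0093243, scaffold_13340) was at 1.10, 1.91 and 0.840 CPM in KATH cold against 9.87, 13.1 and 9.16 CPM in KATH control bodies, and at 0.827, 0.349 and 0.531 CPM in FastBKK cold against 24.3, 74.4 and 58.0 CPM in FastBKK control bodies. Both lines fell to low levels without overlap. The interactions were 3.68 ± 0.43 and 3.45 ± 0.71 for GF25227 and GF16221.

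Genes at higher levels were among those of smallest p. GF12546 (FBgn0089583, scaffold_13266) was at 1318, 1404 and 1494 CPM in KATH cold bodies against 1435, 1396 and 1184 CPM in KATH control bodies, which overlap. In FastBKK it was at 257, 298 and 320 CPM in the cold against 1600, 1750 and 1484 CPM in controls. Its interaction was 2.54 ± 0.17 (adjusted p 1.66e-07, edgeR). GF22463 (FBgn0099459, scaffold_12943) moved in opposite directions. It was at 276, 242 and 263 CPM in KATH cold against 49.6, 53.0 and 60.0 CPM in KATH control bodies, and at 183, 124 and 143 CPM in FastBKK cold against 290, 247 and 224 CPM in FastBKK control bodies. Neither pair of groups overlapped, and the interaction was 3.02 ± 0.19. GF22605 (FBgn0099599, scaffold_13248) did the same, at 145, 176 and 107 CPM in KATH cold against 70.0, 61.5 and 52.6 CPM in KATH control bodies, and at 57.8, 39.6 and 58.2 CPM in FastBKK cold against 253, 176 and 218 CPM in FastBKK control bodies (interaction 3.27 ± 0.44).

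The named genes that rose in both lines, but more in KATH, had lower KATH than FastBKK levels at 22 °C by the fitted difference, at -1.45 and -1.16 on the log2 scale. GF17187 (FBgn0094205, scaffold_13340) was at 40, 41.4 and 35.4 CPM in KATH cold against 1.20, 0.699 and 0.871 CPM in KATH control bodies, and at 23.9, 23.6 and 22.6 CPM in FastBKK cold against 1.20, 4.05 and 2.15 CPM in FastBKK control bodies. It rose by 5.40 in KATH and 3.21 in FastBKK on the log2 scale. GF13643 (FBgn0090671, scaffold_13266) was at 126, 113 and 130 CPM in KATH cold against 7.81, 10.0 and 4.44 CPM in KATH control bodies, and at 76.7, 89.9 and 55.0 CPM in FastBKK cold against 24.8, 14.4 and 10.7 CPM in FastBKK control bodies. Cold and control did not overlap in either line for both genes, whose interactions were 2.19 ± 0.41 and 1.89 ± 0.40.

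Those that rose in KATH with no call in FastBKK were also lower in KATH at 22 °C, by fitted differences of -1.70 and -1.46. GF13654 (FBgn0090682, scaffold_13266) was at 28.0, 22.9 and 21.3 CPM in KATH cold against 6.35, 6.53 and 5.68 CPM in KATH control bodies, and at 18.4, 16.2 and 13.5 CPM in FastBKK cold against 20.4, 18.9 and 20.8 CPM in FastBKK control bodies (interaction 2.28 ± 0.34). GF27041 (FBgn0274264, scaffold_12916) was at 50.5, 38.2 and 45.1 CPM in KATH cold against 8.92, 10.0 and 8.26 CPM in KATH control bodies, and at 29.6, 22.1 and 24.8 CPM in FastBKK cold against 19.1, 31.5 and 24.3 CPM in FastBKK control bodies. The FastBKK groups of GF27041 overlapped. Its interaction of 2.27 ± 0.63 was called in 7 of the 12 fits that leave out 1 library. The adjusted p of these 12 fits ran up to 0.0618 (edgeR).

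The lowest interaction among genes of at least 10 CPM was that of GF26559 (FBgn0273782, scaffold_12943), which was at 219, 133 and 157 CPM in KATH cold bodies against 230, 189 and 232 CPM in KATH control bodies. In FastBKK it was at 56.5, 81.2 and 23.3 CPM in the cold against 1.26, 0.946 and 4.06 CPM in controls. The KATH groups overlapped at a high level and FastBKK rose without overlap, and the interaction was -5.04 ± 0.74 (adjusted p 0.000394, edgeR). GF15938 (FBgn0092961, scaffold_12903) also rose in FastBKK, to 70.8, 65.8 and 85.5 CPM in the cold against 6.22, 4.40 and 12.7 CPM in controls. In KATH it was at 70.9, 24.2 and 22.3 CPM in the cold against 75.5, 43.2 and 49.3 CPM in controls, groups that overlap, and the interaction was -3.77 ± 0.65.

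GF15378, GF19743 and GF18086 fell in KATH and rose in FastBKK. GF15378 (FBgn0092403, scaffold_12916) was at 21.3, 5.39 and 12.1 CPM in KATH cold against 35.9, 39.5 and 38.5 CPM in KATH control bodies, and at 119, 148 and 145 CPM in FastBKK cold against 65.0, 12.5 and 46.2 CPM in FastBKK control bodies (interaction -3.29 ± 0.76). GF19743 (FBgn0096750, scaffold_13088) was at 7.39, 8.11 and 6.78 CPM in KATH cold against 25.4, 26.8 and 20.3 CPM in KATH control bodies, and at 8.12, 7.95 and 8.41 CPM in FastBKK cold against 3.30, 3.51 and 4.09 CPM in FastBKK control bodies. KATH minus FastBKK was -0.14 in the cold (adjusted p 0.721) and 2.73 at 22 °C on the log2 scale (interaction -2.87 ± 0.33, adjusted p 5.79e-05, edgeR). GF18086 (FBgn0095104, scaffold_13340) was at 337, 323 and 177 CPM in KATH cold against 879, 954 and 940 CPM in KATH control bodies, and at 436, 703 and 498 CPM in FastBKK cold against 336, 266 and 248 CPM in FastBKK control bodies (interaction -2.67 ± 0.32). Cold and control did not overlap in either line for these 3 genes.

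GF17269 and GF23027 gave a difference between lines in the cold, at -2.47 and -2.18 on the log2 scale, and no call at 22 °C. GF17269 (FBgn0094287, scaffold_13340) was at 7.74, 12.1 and 6.91 CPM in KATH cold against 79.8, 76.7 and 80.0 CPM in KATH control bodies, and at 56.2, 54.7 and 37.4 CPM in FastBKK cold against 76.4, 50.4 and 82.0 CPM in FastBKK control bodies. It fell in KATH without overlap, while the FastBKK groups overlapped (interaction -2.65 ± 0.40). GF23027 (FBgn0100021, scaffold_12911) was at 3.94, 8.44 and 4.79 CPM in KATH cold against 19.2, 26.7 and 10.6 CPM in KATH control bodies, and at 17.2, 26.8 and 33.5 CPM in FastBKK cold against 10.2, 11.6 and 18.1 CPM in FastBKK control bodies (interaction -2.69 ± 0.54). It fell in KATH without overlap, and it rose by 0.96 on the log2 scale in FastBKK (adjusted p 0.0381, edgeR), where the groups overlapped.

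One of the 8 lowest depended strongly on 1 library. GF16733 (FBgn0093754, scaffold_13340) was at 6.98, 6.31 and 5.51 CPM in KATH cold against 214, 22.1 and 12.8 CPM in KATH control bodies, and at 27.0, 20.1 and 47.1 CPM in FastBKK cold against 19.9, 18.5 and 34.5 CPM in FastBKK control bodies. The value of 214 CPM in replicate 1 of the KATH control stood far above all others of these groups. The interaction of -4.09 ± 1.11 became -1.84 without that library, with an adjusted p of 0.079 (edgeR). It was called in 8 of the 12 fits that leave out 1 library, with adjusted p of 0.0552 without FastBKK cold replicate 4 and 0.0528 without FastBKK control replicate 3 or KATH cold replicate 4. Its call also ended with limma-voom (adjusted p 0.143) and with the replicate number as a block in edgeR (adjusted p 0.141).

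**Figure D3:**
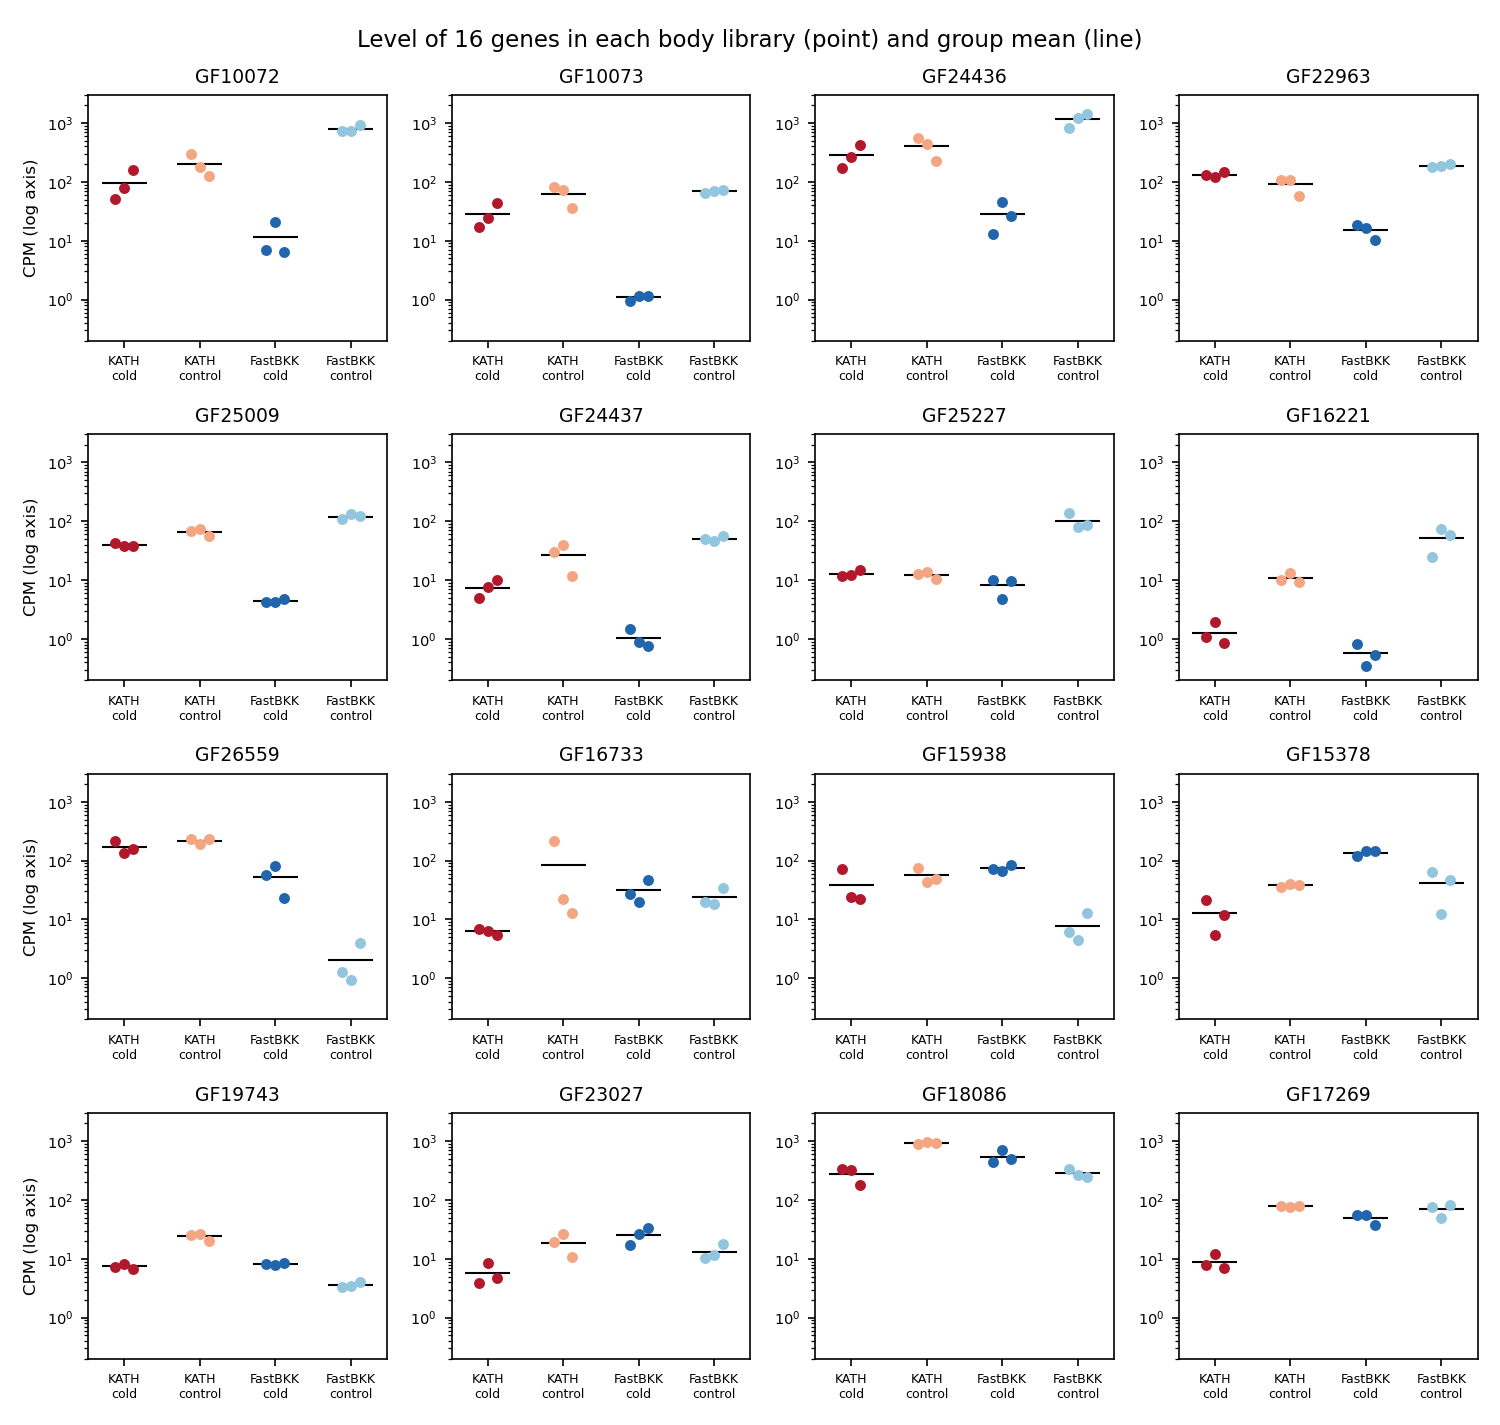
Points are TMM-scaled CPM in each body library on a log axis and lines are group means, for the 8 highest (upper rows) and the 8 lowest (lower rows) interactions among genes of at least 10 CPM, with 3 libraries in each of KATH cold, KATH control, FastBKK cold and FastBKK control. In the upper rows FastBKK cold lies far below FastBKK control, as for GF10072 at 6.32 to 21.1 against 730 to 945 CPM, and for GF16733 a single KATH control library lies at 214 CPM.

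Smaller but tightly measured drops in KATH completed the genes of smallest p. GF17991 (FBgn0095009, scaffold_13340) was at 13.9, 11.2 and 12.9 CPM in KATH cold against 40.7, 37.7 and 36.1 CPM in KATH control bodies, and at 17.7, 18.2 and 16.6 CPM in FastBKK cold against 16.3, 13.0 and 15.4 CPM in FastBKK control bodies (interaction -1.82 ± 0.19, adjusted p 1.82e-05, edgeR). GF12248 (FBgn0089286, scaffold_13266) was at 152, 128 and 115 CPM in KATH cold against 224, 246 and 224 CPM in KATH control bodies, and at 177, 147 and 174 CPM in FastBKK cold against 142, 129 and 137 CPM in FastBKK control bodies (interaction -1.10 ± 0.13). The KATH control group stood above the other 3 groups for both genes. GF12248 also rose in FastBKK without overlap, by 0.29 on the log2 scale (adjusted p 0.0138, edgeR), while GF17991 gave no call there.

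Few called genes had no call in either line by itself. The member highest in KATH of at least 10 CPM, GF23006, averaged 91.7 ± 5.89 CPM in KATH cold against 74.0 ± 5.63 CPM in KATH control bodies, and 70.1 ± 7.97 CPM in FastBKK cold against 89.5 ± 18.4 CPM in FastBKK control bodies (SD, n = 3 each). The member lowest in KATH, GF13316, averaged 10.6 ± 0.81 CPM in KATH cold against 12.2 ± 0.44 CPM in KATH control bodies, and 10.7 ± 0.88 CPM in FastBKK cold against 8.97 ± 0.63 CPM in FastBKK control bodies. Their interactions were 0.66 ± 0.21 and -0.45 ± 0.14, and they were called in 4 and 3 of the 12 fits that leave out 1 library.

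Genes of a list present in the hindgut and not in the tubule more often had a higher than a lower response in KATH. The list does not exclude genes that are also expressed in other parts of the body. A list of 283 genes with a mean of at least 50 CPM in the 18 dissected hindgut libraries and a median under 1 CPM in the 18 tubule libraries, made without body values, was tested in the body in full, and no member was at 0 there. Of the list, 104 genes were higher in KATH (36.7%, against 8.86% of all tested genes) and 7 were lower (2.47%, against 5.26%). Its median interaction was 0.43 against 0.03 for all tested genes, and it lay 0.41 above the median of all tested genes with library totals alone too. The median cold response of the list was -0.14 in KATH, -0.43 in FastBKK and -0.40 in SlowBKK. Its summed level was 1.90, 1.92 and 1.98% of CPM in KATH cold bodies against 2.08, 2.23 and 2.40% in KATH control bodies, and 1.82, 1.82 and 1.83% in FastBKK cold bodies against 2.77, 2.95 and 3.03% in FastBKK control bodies. The sum was thus lower in the cold in both lines without overlap, and the FastBKK control bodies held more of it than the KATH control bodies.

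Examples from the list went both ways. GF27041, described above, was its member with the highest interaction of at least 10 CPM. GF21371 (FBgn0098373, scaffold_13117), at a mean of 2614 CPM in the dissected hindgut, was at 38.0, 49.1 and 42.9 CPM in KATH cold bodies against 267, 265 and 232 CPM in KATH control bodies, and at 25.1, 19.3 and 19.9 CPM in FastBKK cold against 314, 301 and 320 CPM in FastBKK control bodies. It fell in both lines without overlap, less in KATH (interaction 1.31 ± 0.15, adjusted p 4.22e-05, edgeR). GF14441 (FBgn0091468, scaffold_12916) was the lowest, at 58.9, 74.7 and 61.8 CPM in KATH cold against 295, 206 and 179 CPM in KATH control bodies, and at 136, 255 and 175 CPM in FastBKK cold against 186, 196 and 316 CPM in FastBKK control bodies. It fell in KATH without overlap while the FastBKK groups overlapped (interaction -1.50 ± 0.37).

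The same genes had a median interaction near 0 in the hindgut itself. In the 18 dissected hindgut libraries, fitted alone, the median interaction of the 283 genes was 0.01, and 7 of them were called there (2.47%, against 0.636% of all genes tested in the hindgut). One hindgut library, replicate 3 of the FastBKK control, stood apart: 0.876% of its counts came from genes present in neither organ, against 0.0645 to 0.289% in the other 17. Without it the median was -0.00. Body and hindgut libraries differ in kit and in the number of pooled flies, so their difference was not tested, and whether the body values reflect the amount of hindgut RNA in the body was not tested. The corresponding tubule list of 59 genes had 8 genes called in the body by edgeR (13.6%), all 8 higher in KATH, against 14.1% called and 8.86% higher over all tested genes. Its median interaction was 0.29. Its member with the highest interaction, GF16557 (FBgn0093578, scaffold_13340), was at 30.4, 31.6 and 41.9 CPM in KATH cold against 73.9, 79.8 and 72.3 CPM in KATH control bodies, and at 17.8, 22.5 and 11.9 CPM in FastBKK cold against 121, 123 and 132 CPM in FastBKK control bodies (interaction 1.72 ± 0.28).

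Genes present in neither organ were often among those with a lower response in KATH. This split of all tested genes, by a median of at least 1 CPM in each organ, was added after the data were seen. Of the 3834 genes present in neither organ (28.5% of tested genes), 391 were lower in KATH (10.2%) and 139 higher (3.63%), so they held 55.3% of all genes lower in KATH. This share was 48.8% with library totals alone, 49% without FastBKK control replicate 3 and 48.4% without KATH cold replicate 2. It was 40.5% when a fold change over 1.5 was required and 13.3% when all 54 libraries shared 1 fit. The balance of calls in the set turned round under these 2 settings. With the fold change over 1.5, 50 genes were higher and 15 lower, and with all 54 libraries 10 were higher and 4 lower. The median interaction of the set stayed below 0 under both, at -0.12 and -0.20. In the reported fit the median interaction of these genes was -0.12, with a median cold response of -0.23 in KATH against -0.09 in FastBKK. Their summed level was 15.8, 16.7 and 16.9% of CPM in KATH cold bodies against 19.9, 20.1 and 20.8% in KATH control bodies, and 16.1, 16.1 and 16.5% in FastBKK cold against 18.6, 19.3 and 19.9% in FastBKK control bodies. The 7622 genes present in both organs had 700 higher (9.18%) and 240 lower (3.15%), and the 1724 present in the hindgut only had 326 higher (18.9%) and 67 lower (3.89%). The 255 present in the tubule only had 25 higher (9.8%) and 9 lower (3.53%), against 8.86% and 5.26% of all tested genes. The 8 named genes with the highest interactions were also among the genes of neither organ.

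**Figure D4:**
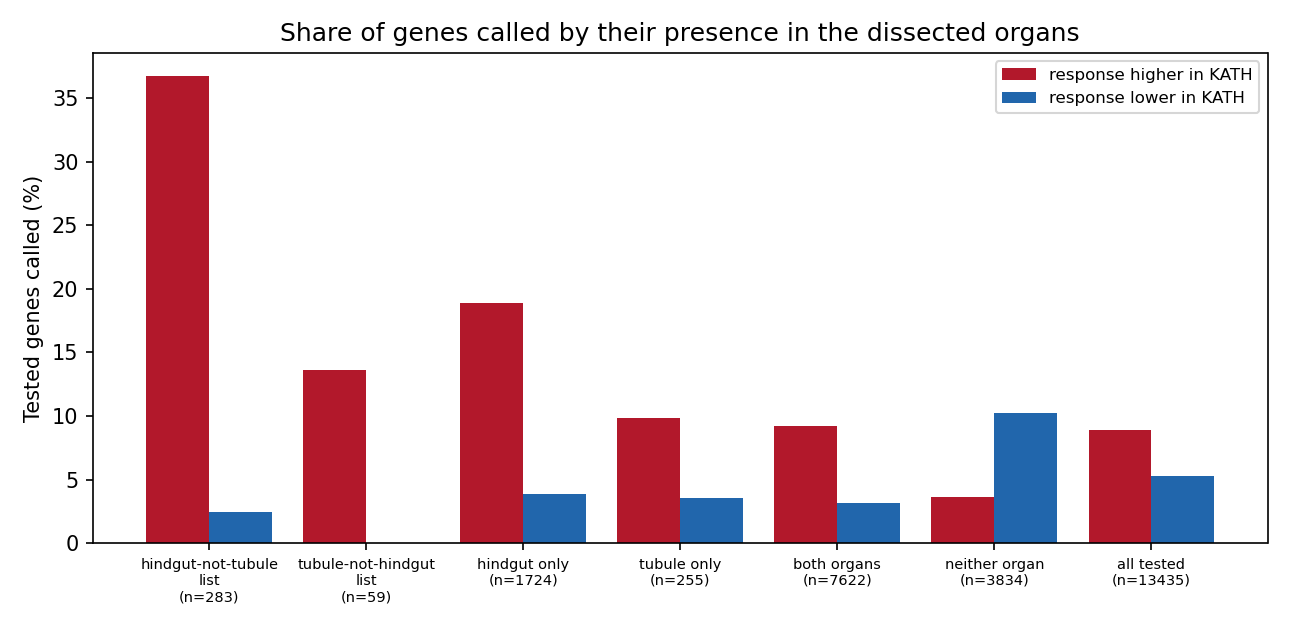
Bars give the share of tested genes called with a higher (red) and a lower (blue) body response in KATH, for lists made from dissected hindgut and tubule libraries and for all tested genes. The hindgut-not-tubule list reaches 36.7% higher, and the genes of neither organ 10.2% lower, against 8.86% and 5.26% of all tested genes.

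Little of the body interaction was also called in the dissected organs. Standard errors could be larger there, as for GF22463, at 0.19 in the body against 1.16 in the hindgut and 0.97 in the tubule. For GF14441 they were alike, at 0.37 in body and hindgut. A missing call in an organ is thus no evidence of an equal response, and the part of precision in the few calls was not tested. The same contrast gave 72 calls among 11323 genes in the hindgut (0.636%) and 23 among 10132 in the tubule (0.227%). Of the 1897 genes called in the body, 1586 were tested in the hindgut, and 27 were also called there (1.7%, against 0.624% of the 11220 genes tested in both), 24 of them with the same sign. Over all 70 hindgut calls tested in both, 57 had the same sign as in the body. Of the 27, 17 remained called without the hindgut library that stood apart. Of the 1586, called there or not, 849 had the same sign (53.5%, against 50.45% of the 11220). Among those lower in KATH 197 of 453 did (43.5%). Without the library that stood apart these 3 shares were 57.4%, 53.6% and 65.05%. In the tubule 7 of the 1442 tested there were called (0.485%, against 0.228% of the 10081 genes tested in both). All 7 had the same sign, and over all 23 tubule calls 18 did. Of the 1442, called there or not, 816 had the same sign (56.6%, against 53.2% of the 10081). GF18086 was called in both body and hindgut, with -3.31 in the hindgut against -2.67 in the body (hindgut adjusted p 0.00476, edgeR). GF19743 was another, with -3.16 in the hindgut against -2.87 in the body. GF13771 was called in the tubule, with 4.04 there against 1.81 in the body. The 3 genes of opposite sign in the hindgut, named after their values were seen, were GF11631 (-1.26 in the hindgut against 1.22 in the body), GF14043 (-1.07 against 0.37) and GF17572 (1.54 against -0.27).

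Called genes were found on each of the 13 scaffolds with at least 100 tested genes. There the share called ran between 9.83% on scaffold_13117 and 16.2% on scaffold_12911, and scaffold_13047 had 19 genes higher and 2 lower. By abundance, 20.6% of the most abundant 3359 genes were called, against 7% of the least abundant 3359. By length, the shortest 3361 genes had 353 higher and 112 lower, and the longest 3359 had 237 higher and 177 lower. In each body library log2 levels followed gene length, with slopes per doubling of length above 0 in all cold libraries and below 0 in all control libraries of both lines. Whether this trend took part in the calls was tested only by removing it, as given above.

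Some called genes had consecutive symbol numbers, as at GF10072 and GF10073. Symbol order is not position, and shared reads were not checked. Over 9697 pairs of tested genes with consecutive numbers on 1 scaffold, the second was called in 17.6% of pairs whose first was called, against 14.6% of all pairs. Of the 247 pairs with both called, 126 were higher in both, 42 lower in both and 79 opposite. There were 24 runs of at least 3 called genes of 1 direction, with 77 genes, and 20 of the runs were higher in KATH. Most calls were higher in KATH under this scaling (1190 against 707), and the number of runs was not tested. In the run GF25226 to GF25229 the median interaction was 2.99, with median cold responses of 0.23 in KATH against -2.93 in FastBKK. In GF16220 to GF16222 it was 2.80, with -2.60 in KATH against -5.41 in FastBKK. In GF22958 to GF22961 and GF14351 to GF14354 it was 2.59 and 2.39. The member GF14351 (FBgn0091378, scaffold_12916) was at 227, 305 and 205 CPM in KATH cold against 173, 217 and 95.1 CPM in KATH control bodies, and at 94.6, 106 and 41.5 CPM in FastBKK cold against 288, 320 and 294 CPM in FastBKK control bodies. Its KATH groups overlapped and its FastBKK groups did not.

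The remaining named genes, which lead the lists by scaffold and length, had smaller interactions in most cases. GF12402 (FBgn0089439, scaffold_13266) was at 181, 252 and 265 CPM in KATH cold against 184, 158 and 150 CPM in KATH control bodies, and at 33.1, 53.3 and 34.6 CPM in FastBKK cold against 187, 215 and 244 CPM in FastBKK control bodies (interaction 2.92 ± 0.44). GF21606 (FBgn0098606, scaffold_12943) was at 15.1, 16.3 and 35.9 CPM in KATH cold against 21.0, 31.3 and 38.8 CPM in KATH control bodies, and at 6.58, 18.2 and 20.7 CPM in FastBKK cold against 241, 145 and 166 CPM in FastBKK control bodies (interaction 3.16 ± 0.53). The KATH groups overlapped and the FastBKK groups did not for both genes. GF23282 (FBgn0100276, scaffold_12911) was at 18.1, 15.3 and 15.0 CPM in KATH cold against 14.7, 15.2 and 15.2 CPM in KATH control bodies, groups that overlap. It rose in FastBKK, at 57.4, 86.2 and 104 CPM in the cold against 28.7, 20.9 and 21.6 CPM in controls (interaction -1.70 ± 0.25).

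Genes of this kind with a deeper fall in KATH included GF23477 and GF26691. GF23477 (FBgn0100471, scaffold_13337) was at 32.5, 23.8 and 23.2 CPM in KATH cold against 123, 120 and 115 CPM in KATH control bodies, and at 36.2, 37.6 and 30.8 CPM in FastBKK cold against 60.0, 57.8 and 50.6 CPM in FastBKK control bodies (interaction -1.48 ± 0.18). GF26691 (FBgn0273914, scaffold_13335) was at 2.90, 2.17 and 2.43 CPM in KATH cold against 35.7, 41.0 and 30.6 CPM in KATH control bodies, and at 2.02, 1.46 and 0.950 CPM in FastBKK cold against 6.12, 4.81 and 8.15 CPM in FastBKK control bodies (interaction -1.72 ± 0.40). Both fell in both lines without overlap, and the KATH control bodies held the highest level of each. GF20253, GF27751, GF12364, GF21722, GF21479, GF22646 and GF19170 also had a lower response in KATH, with interactions of -1.12, -1.19, -1.78, -0.74, -1.27, -0.69 and -0.43. GF22646 and GF19170 rose in FastBKK with no call in KATH, and the others fell in KATH. GF22224, GF21705, GF19237, GF19518 and GF20309 had a higher response in KATH, with interactions of 1.52, 1.58, 1.46, 1.31 and 1.45. Of these, GF19237 and GF19170 were called in 4 and 3 of the 12 fits that leave out 1 library, GF27751 in 9, and GF19518 and GF22646 in 11.

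**Figure D5:**
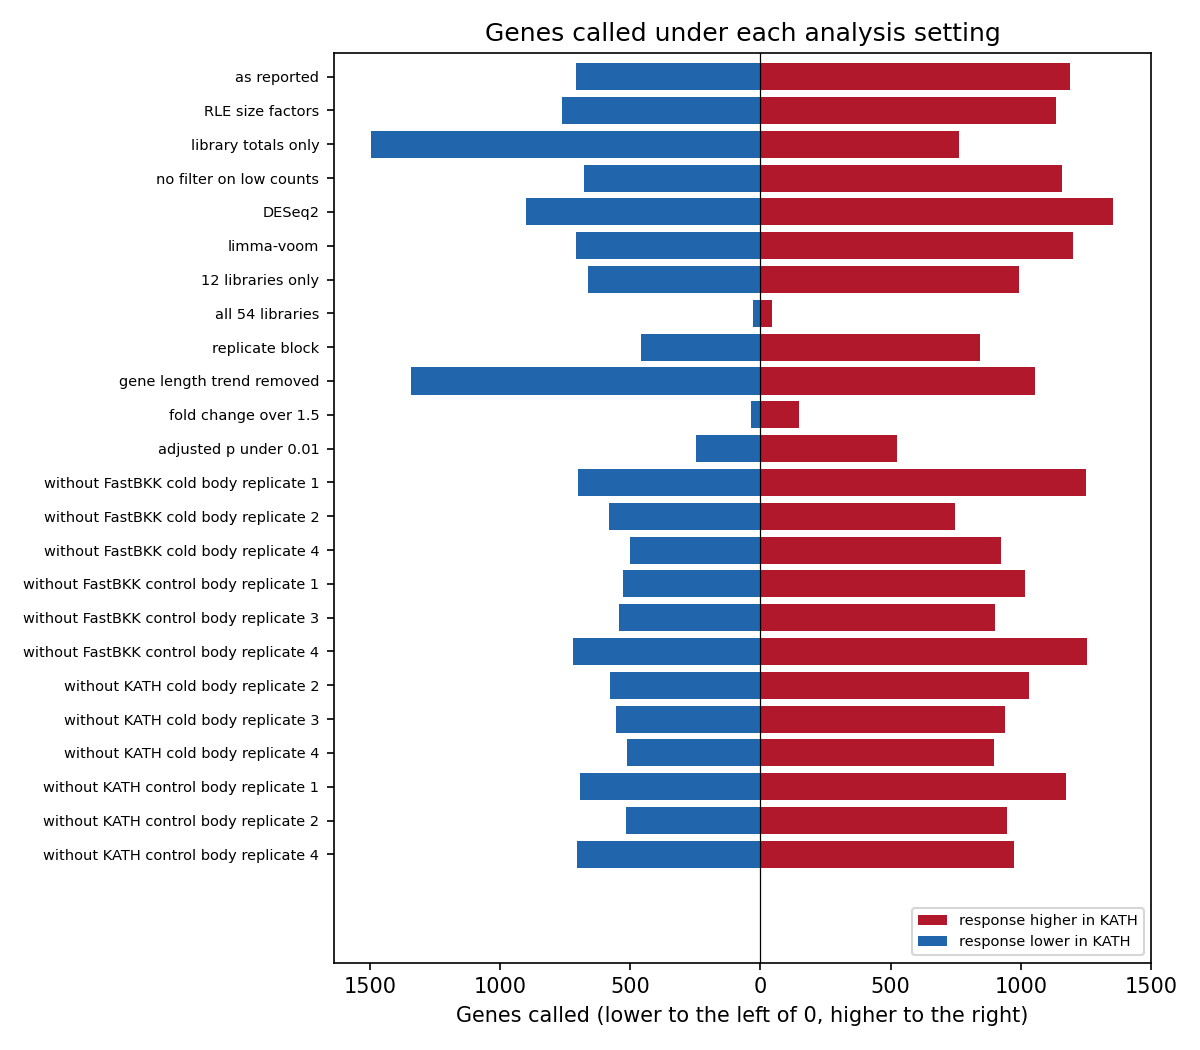
Bars count genes called with a response lower in KATH (left of 0) and higher in KATH (right of 0) under each analysis setting, with the reported analysis in the top row. The reported split of 1190 higher and 707 lower becomes 764 and 1496 with library totals only, and 45 and 30 when all 54 libraries share 1 fit.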

How the data were processed

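RNA was measured in 54 libraries, of which the 18 body libraries were fitted and 12 form the comparison. The deposited table gives unnormalized whole-number counts of each gene in each library, beside FlyBase identifiers, scaffold names and a gene length column in bases, per the file headers. FastQC 0.11.9 is named in the submitters' processing notes; the aligner, counter, genome build and use of strand are not given in the sources used here. Each column matched 1 label (0 columns of other samples).

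Counts were fitted with edgeR 4.0.16 in R 4.3.3 (limma 3.58.1), with 1 coefficient per line and treatment. The filter filterByExpr kept 13435 of 14365 genes, libraries were scaled by TMM, and the interaction was tested with the two-sided quasi-likelihood F test and Benjamini-Hochberg adjustment, called under 0.05. The 6 SlowBKK libraries are no part of the contrast but entered the filter, the scaling and the estimate of spread (biological coefficient of variation 11.1%). Log2 values are given with standard errors (SE). A count of 3 was taken as the floor, which covers counting error only. The hindgut and the tubule were fitted alone in the same way. No pair of libraries of a group agreed within sampling noise (chi-square per degree of freedom at least 11.0 over 12 pairs), so none was counted as a repeat deposit. The code was tested on simulated data.

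Named genes had at least 10 CPM on average over the 12 libraries, a call, and 1 sign in all 12 fits that leave out a library. They were the 8 highest and 8 lowest interactions, the 4 smallest p in each direction, the 2 of largest absolute size for each pattern of the line responses and the leading member of each list in each direction. Members, rule and lists were chosen with earlier results of these data known. Planned lists by gene product were void, since 0 of 14365 genes matched the reference gene table. Alternatives included RLE size factors, library totals, no filter, DESeq2 1.42.0, limma-voom, other sets of libraries, a replicate block, removal of the length trend, a fold change over 1.5 and an adjusted p under 0.01.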

Additional observations from a re-analysis of the deposited data

Results flagged for a closer look

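The test of the difference between the lines in their cold response called 1897 genes. The named genes among them, by the same test, had these differences in response (KATH minus FastBKK, log2). The highest were GF10072 at 5.09, GF10073 and GF24436 at 4.85 each, GF22963 at 4.18, GF25009 at 4.02, GF24437 at 3.74, GF25227 at 3.68 and GF16221 at 3.45. The lowest were GF26559 at -5.04, GF16733 at -4.09, GF15938 at -3.77, GF15378 at -3.29, GF19743 at -2.87, GF23027 at -2.69, GF18086 at -2.67 and GF17269 at -2.65. Those of smallest p also held GF22463 at 3.02, GF12546 at 2.54, GF17991 at -1.82 and GF12248 at -1.10. Those leading a pattern of responses were GF22605 at 3.27, GF13654 at 2.28, GF27041 at 2.27, GF17187 at 2.19, GF13643 at 1.89, GF23006 at 0.662 and GF13316 at -0.452.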

How the results depend on the processing

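The count of 1897 genes became 1901 with RLE size factors, 2260 with library totals, 1837 without a filter, 2255 with DESeq2, 1911 with limma-voom, 1653 from the 12 libraries alone and 2399 with the length trend removed. It became 75 when all 54 libraries shared 1 fit, 185 when the test required a fold change over 1.5, and 773 at an adjusted p under 0.01. The 1190 genes higher in KATH became 764 with library totals, 45 with all 54 libraries, 148 over 1.5-fold and 525 under 0.01. The 707 genes lower in KATH became 1496 with library totals, 1343 with the length trend removed, 30 with all 54 libraries, 37 over 1.5-fold and 248 under 0.01. The 104 higher genes of the hindgut-not-tubule list became 16 over 1.5-fold, 60 under 0.01 and 0 with all 54 libraries, where edgeR placed 9 genes of the list at an unadjusted p under 0.05. With the list made from the hindgut median, an alternative added after seeing the data, they were 100. The 391 lower genes of neither organ became 730 with library totals, 713 with the length trend removed, 4 with all 54 libraries, 15 over 1.5-fold and 142 under 0.01. Beyond the stricter thresholds, the cause of these changes was not tested.

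Without 1 library at a time, the counts ran between 1330 and 1973 in all, 749 and 1253 higher, 502 and 720 lower, 80 and 107 for the hindgut-not-tubule list and 267 and 432 for the lower genes of neither organ. The 749 came from leaving out FastBKK cold replicate 2. Replicate numbers did not pair the samples: same-numbered libraries of different groups had correlations of their deviations between -0.26 and 0.14 over 13 pairs, with 2 pairs over 0.1. With the replicate number as a block, 1302 genes were called, 845 higher and 457 lower, with 93 in the hindgut-not-tubule list and 260 lower in neither organ. The rule for naming genes required 1 sign in all 12 fits that leave out 1 library. Of the 48 named genes none reversed in any other alternative run. Their calls held for 12 with all 54 libraries, 39 with the replicate block, 32 over 1.5-fold, 38 under 0.01 and 46 to 48 under the other settings, and for 42 to 46 when 1 library was left out. Of the least abundant 3359 genes 7% were called; the part of depth in this was not tested.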
